A study of Mus musculus with 21 samples.

Results

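Collagens VI, VIII, XII, XIV and XVI stand outside the large fibrillar collagens. The 8 genes described here encode chains of them: Col6a1, Col6a2, Col6a3, Col8a1, Col8a2, Col12a1, Col14a1 and Col16a1. Collagen VI has further chains, which are listed near the end of the results. They were taken by symbol, not by their values, from a table of raw counts for 52636 genes, in which each symbol matched 1 mouse Ensembl ID. All 8 were among the 16197 genes that passed the filter on low counts. Bulk RNA-seq had been run on mouse lung fibroblasts positive for Ly6C and Sca-1, which are surface proteins found on adventitial lung fibroblasts, in 7 treatment groups of 3 libraries. A group had DMSO, the solvent, and another had CHIR, a short name that the labels do not spell out and that usually refers to a GSK3 inhibitor used to activate Wnt signalling. The other groups all had TGFb1, a cytokine that drives fibroblasts towards matrix production. It was given by itself, with DMSO, with CHIR, with IL1b or with TNF, and the last pair are inflammatory cytokines. No genotype, strain, age, dose or duration is given in the sources used here, and no sample without any addition was analysed. The labels do not say whether replicates were separate cultures or animals, so a p-value here reflects how much these libraries varied, which may be technical variation alone.

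Collagen VI is a beaded-filament collagen: Col6a1, Col6a2 and Col6a3 encode the alpha chains that join in a heterotrimer, and the trimers are assembled into tetramers before they are secreted and linked end to end as microfilaments around cells. Collagen VIII is a short-chain, network-forming collagen made of the chains of Col8a1 and Col8a2, known from the subendothelial layer, the corneal endothelium and remodelling vessels. Collagens XII and XIV are FACITs, fibril-associated collagens with interrupted triple helices, which are homotrimers that lie on the surface of collagen I fibrils. Collagen XVI, from Col16a1, is a homotrimer of the same broad family.

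The promoters of the collagen VI genes are shown because Col6a1 and Col6a2 shared a direction in each main comparison below, while Col6a3 differed from them in some. Col6a1 lies on chromosome 10 of GRCm38 at 76708792 to 76726168, and Col6a2 lies beside it at 76595762 to 76623630, both on the minus strand. Col6a3 lies on chromosome 1 at 90765923 to 90843971, also on the minus strand. RefSeq windows on GRCm38.p6, from 250 bases before to 50 bases after an annotated start, were matched for 6 of the 8 genes. Col12a1 and Col14a1 had no entry, and for Col6a2, with 2 entries, the window nearest the principal transcript's start was used. The windows below are chr10:76725995-76726294 for Col6a1, chr10:76623581-76623880 for Col6a2 and chr1:90843922-90844221 for Col6a3, each read on the minus strand. Capitals mark motif matches on either strand.

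Col6a1 promoter: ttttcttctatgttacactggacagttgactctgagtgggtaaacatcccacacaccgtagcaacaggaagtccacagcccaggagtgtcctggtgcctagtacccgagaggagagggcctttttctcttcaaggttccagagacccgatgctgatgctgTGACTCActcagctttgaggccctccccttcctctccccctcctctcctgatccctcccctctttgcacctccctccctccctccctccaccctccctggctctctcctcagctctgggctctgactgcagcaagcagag
Col6a2 promoter: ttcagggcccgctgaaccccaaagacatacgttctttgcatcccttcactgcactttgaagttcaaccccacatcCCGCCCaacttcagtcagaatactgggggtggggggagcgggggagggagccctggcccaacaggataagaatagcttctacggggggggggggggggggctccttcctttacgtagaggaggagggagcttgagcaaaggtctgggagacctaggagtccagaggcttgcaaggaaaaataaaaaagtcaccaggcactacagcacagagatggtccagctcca
Col6a3 promoter: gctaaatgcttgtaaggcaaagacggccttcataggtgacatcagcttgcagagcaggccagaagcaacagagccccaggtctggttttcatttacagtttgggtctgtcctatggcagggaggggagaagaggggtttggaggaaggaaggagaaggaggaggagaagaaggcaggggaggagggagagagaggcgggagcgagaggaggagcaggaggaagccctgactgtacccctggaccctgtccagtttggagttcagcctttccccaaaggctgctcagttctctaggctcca

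The motifs searched were the AP-1 site TGANTCA, the GC box GGGCGG, the TATA box TATAAA, the CCAAT box, the TEAD motif GGAATG, the TCF/LEF motif CTTTGAT and the SMAD palindrome GTCTAGAC, on both strands. In Col6a1 the capitals are an AP-1 match that begins 90 bases before the RefSeq start of the window, a motif held by 7.81% of the 32851 promoters in the table. The principal transcript of Col6a1 starts further upstream, at 76726168 on the minus strand, so this match lies inside the gene's span given above. In Col6a2 they are a GC box on the opposite strand, which 35.7% of promoters hold, and the Col6a3 window held none of these letters. The windows of Col8a1 and Col8a2, which are not printed, held 4 GC boxes each, 2 of them overlapping in Col8a2, and that of Col16a1 held 2 GC boxes and a CCAAT box (in 37.4% of promoters). No TATA, TEAD, TCF/LEF or SMAD letters were found in any of the 6 windows. The 3 collagen VI windows had similar GC contents of 57.3%, 56.7% and 56.3%.

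Library totals ran from 19796379 to 29276382 counts, and the 8 genes together took 0.294% to 0.649% of them, least in the TGFb1 + TNF libraries and most in those with TGFb1 + CHIR. Levels are given as CPM, each count scaled by its library's total after TMM correction for differences in library composition. Fold changes, their standard errors (SE) and adjusted p-values are from edgeR's quasi-likelihood test over all genes tested, with a threshold of 0.05. The fibroblast markers Pdgfra, Col1a1, Col1a2, Col3a1 and Dcn were detected in every library, Pdgfra and Dcn at no less than 74.7 and 89 CPM, while Lum reached no more than 18.7 CPM in any library. Of the genes for the sorted surface proteins, Ly6a ran from 6.82 to 146 CPM over the libraries and Ly6c1 from 0.556 to 51.7 CPM. Ptprc, Adgre1 and Cd3e, which mark immune cells, and Cldn5, which marks endothelium, had no counts in any library. Other genes of these lists were low but present: Cd68 at 0.761 to 2.71 CPM, Lyz2 at up to 1.5 CPM, Kdr at 1.04 to 21.2 CPM and Cdh5 at up to 4.77 CPM. In bulk RNA, fewer cells expressing a gene and less of its RNA per cell cannot be told apart.

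TGFb1 + DMSO against DMSO asks what TGFb1 did to these collagens in the presence of the solvent. Of the 8 genes, 5 rose and 3 fell, beside 62% of all genes tested that were called in either direction, 30.7% higher and 31.3% lower. So a call as such does not set these genes apart; the sizes and directions follow. Their median log2 fold change was 0.72, against -0.02 over all genes tested. Within collagen VI the chains parted: Col6a1 and Col6a2 fell and Col6a3 rose. Both collagen VIII chains rose, and among the FACITs Col12a1 and Col16a1 rose while Col14a1 fell.

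Col6a1, the alpha 1 chain of collagen VI, stood at 1550, 1461 and 1456 CPM in the DMSO libraries and at 334.6, 320.7 and 312.3 CPM with TGFb1 + DMSO. Col6a2, the alpha 2 chain, went from 686.6, 651.3 and 649 CPM to 132.9, 131 and 129.4 CPM. For both genes every library with TGFb1 lay far below every DMSO library. Col6a1 was 4.62-fold lower (log2 -2.21 ± 0.043 SE, edgeR adjusted p = 8.21e-42) and Col6a2 5.05-fold lower (log2 -2.34 ± 0.05 SE, edgeR adjusted p = 8.15e-38). Col6a3, the long alpha 3 chain that carries most of the von Willebrand A-like domains of the trimer, held 870.9, 863.7 and 861.5 CPM with DMSO and 1946, 1929 and 2062 CPM with TGFb1 + DMSO. The groups did not overlap, and the level was 2.29-fold higher (log2 1.19 ± 0.036 SE, edgeR adjusted p = 4.47e-33).

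Col8a1, the alpha 1 chain of collagen VIII, read 47.87, 57.65 and 59.31 CPM with DMSO and 290.7, 274.6 and 262.4 CPM with TGFb1 + DMSO, so it rose 5.03-fold (log2 2.33 ± 0.06 SE, edgeR adjusted p = 3.05e-27). Col8a2, its alpha 2 chain, was barely detected with DMSO, at 0.5103, 0.3693 and 0.7702 CPM from 11 to 19 counts a library. With TGFb1 + DMSO it read 44.59, 41.51 and 35.74 CPM, from 977 to 1218 counts. The fitted rise of Col8a2 was 74.9-fold (log2 6.23 ± 0.18 SE, edgeR adjusted p = 9.45e-31), the largest change of any of the 8 genes in this comparison, and the few counts in DMSO limit its precision. No library of one group reached into the other for either chain.

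Col12a1, the FACIT collagen XII that links fibrils to their surroundings, stood at 706.2, 715.5 and 716.4 CPM with DMSO and at 1463, 1364 and 1419 CPM with TGFb1 + DMSO, a rise of 1.99-fold (log2 0.99 ± 0.039 SE, edgeR adjusted p = 2.15e-28). Col14a1, the related collagen XIV, which is known as a regulator of fibril diameter and for binding decorin, went the other way, from 196.3, 197.4 and 200.9 CPM to 123.5, 122.3 and 117.3 CPM. It was 1.64-fold lower (log2 -0.71 ± 0.045 SE, edgeR adjusted p = 9.13e-20). Col16a1, whose product connects to fibrils and fibrillin microfibrils in different tissues, showed the smallest change, from 154.1, 148.9 and 154.2 CPM to 207, 205.3 and 210.8 CPM. That was a rise of 1.36-fold (log2 0.45 ± 0.051 SE, edgeR adjusted p = 6.94e-11), and here too the libraries of the groups did not overlap. With TGFb1 alone in place of TGFb1 + DMSO, the 8 genes were called in the same directions against DMSO, beside 63.5% of all genes called (31% higher and 32.5% lower), with log2 changes from -2.11 for Col6a2 to 6.22 for Col8a2. The mural and smooth muscle marker list summed to 1850 to 2030 CPM with TGFb1 + DMSO and to 1160 to 1220 CPM with DMSO, nearly all of it Acta2. Of its other genes, Cspg4 rose from 7.478 to 99.48 CPM, Notch3 stood at 59.7 CPM with DMSO and 40.03 CPM with TGFb1 + DMSO, and Myh11, Des and Rgs5 reached no more than 7.79, 3.25 and 4.87 CPM in any library. The part of this list in these results was not tested.

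**Figure D1:**
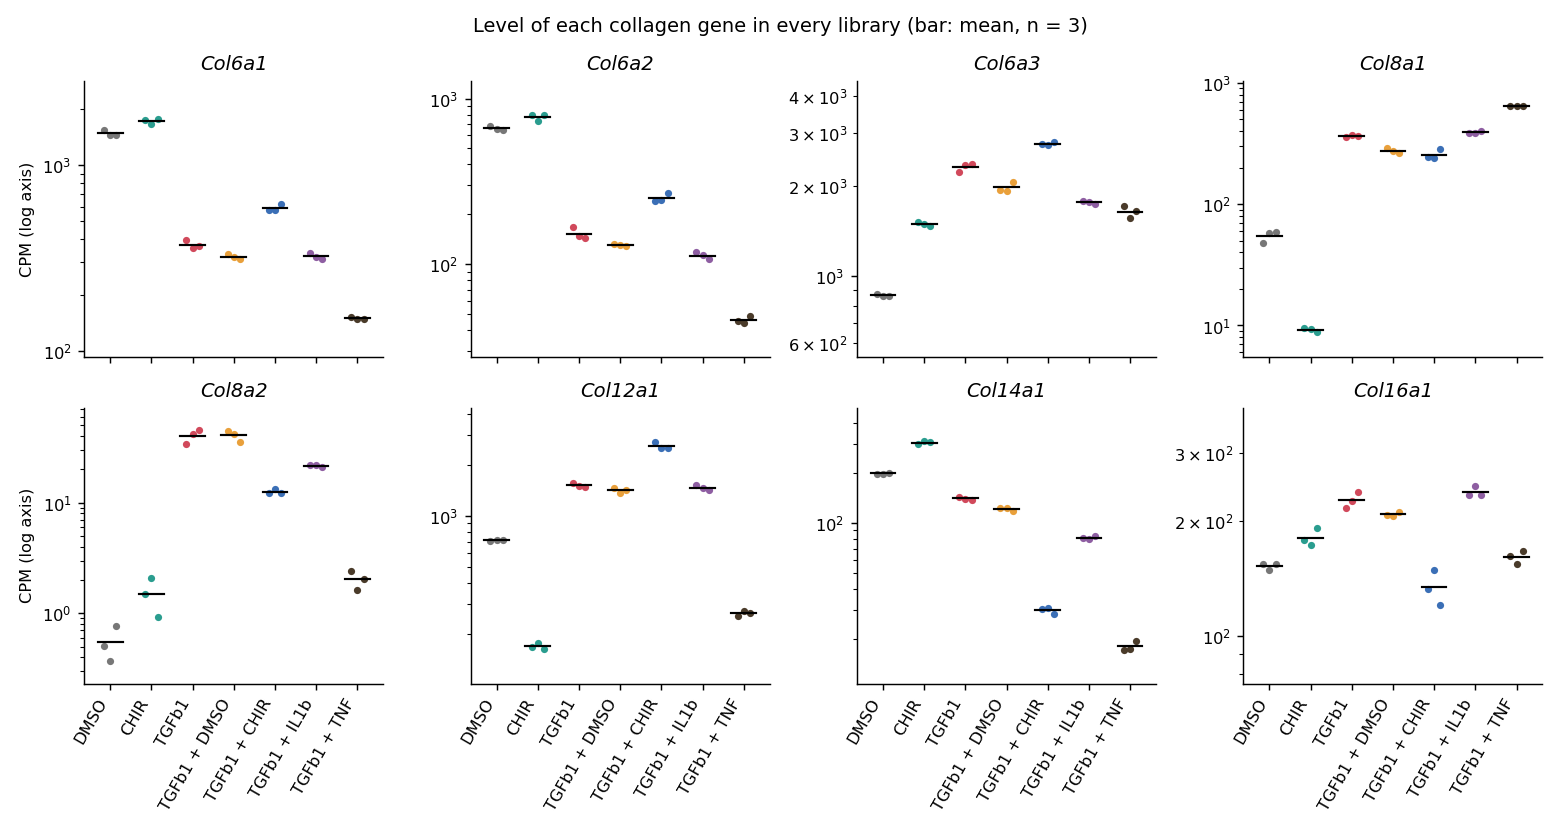
CPM of each of the 8 collagen genes (log axis, a different range in each panel) in the 21 libraries, 3 in each of the 7 treatment groups; points are libraries and bars are group means. Col6a1 and Col6a2 are lower in all 5 groups with TGFb1 than in DMSO and CHIR, Col8a2 is near 0.55 CPM in DMSO and near 40.6 CPM in TGFb1 + DMSO, and Col16a1 spans the narrowest range.

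The ratio of 2 chains within a library does not depend on scaling between libraries, and counts were divided by the length of each gene's merged exons to make it. Col6a2 stood at 0.234 ± 0.000577 of Col6a1 with DMSO and at 0.214 ± 0.00458 with TGFb1 + DMSO (mean ± SD, n = 3). On the log2 scale the ratio differed by -0.129, beside a pooled SD of 0.022. All 3 TGFb1 + DMSO libraries were lower, and the exact two-sided permutation p was 0.1, the smallest that 3 against 3 can give. Against fold changes of over 4 in each gene, the ratio of Col6a2 to Col6a1 stayed between 0.155 and 0.238 in all 21 libraries, lowest with TGFb1 + TNF, at 0.162 ± 0.00907, and with TGFb1 + IL1b, at 0.183 ± 0.00379. With the principal transcripts' lengths the ratio was higher, at 0.462 ± 0.00164 with DMSO and 0.422 ± 0.00899 with TGFb1 + DMSO, since the merged exons of Col6a2 span 8326 bases and its principal transcript 3949.

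Col6a3 was at 0.213 ± 0.00608 of Col6a1 per length with DMSO and at 0.316 ± 0.0115 with CHIR, so the alpha 3 chain was the scarcer RNA. In every group with TGFb1 the order was turned: the ratio was 2.28 ± 0.188 with TGFb1, 2.25 ± 0.151 with TGFb1 + DMSO, 1.72 ± 0.0577 with TGFb1 + CHIR and 2 ± 0.0493 with TGFb1 + IL1b. With TGFb1 + TNF it reached 4.01 ± 0.143. No library with TGFb1 was under 1.65 and none without it was over 0.327. With the principal transcripts' lengths the ratio was also under 1 without TGFb1, at 0.265 with DMSO and 0.393 with CHIR, and over 1 with it, from 2.13 to 4.98.

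The collagen VIII chains were also unequal. Col8a2 was at 0.018 ± 0.00584 of Col8a1 per length with DMSO and at 0.257 ± 0.0163 with TGFb1 + DMSO, a log2 difference of 3.88 beside a pooled SD of 0.37 (exact two-sided permutation p = 0.1, the smallest possible). The ratio was 0.286 ± 0.101 with CHIR, 0.193 ± 0.0274 with TGFb1, 0.0865 ± 0.0108 with TGFb1 + CHIR and 0.0968 ± 0.00433 with TGFb1 + IL1b. It was lowest with TGFb1 + TNF, at 0.00555 ± 0.00106, so Col8a1 was the more abundant chain per length in all 21 libraries. For the FACITs, the ratio of Col14a1 to Col12a1 ran from 3.91 ± 0.162 with CHIR, where XIV exceeded XII, to 0.025 ± 0.00144 with TGFb1 + CHIR.

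**Figure D2:**
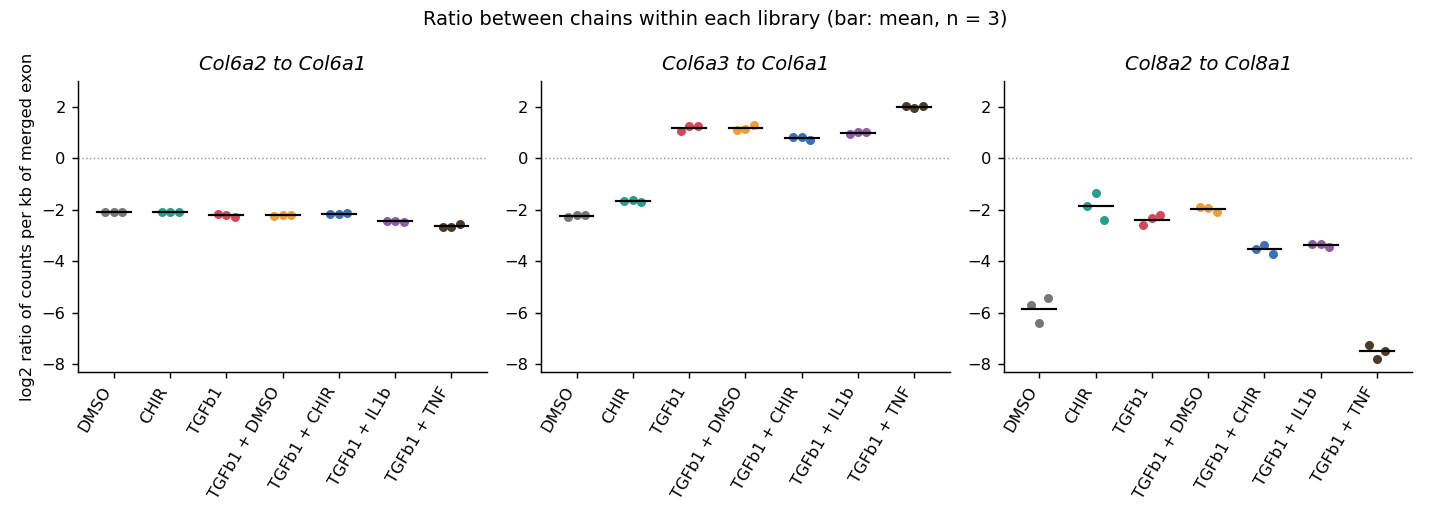
Log2 ratio of counts per kb of merged exon between 2 chains of the same collagen, in each of the 21 libraries (points) with group means (bars, n = 3); the dotted line at 0 marks equal levels. Col6a2 to Col6a1 stays between linear ratios of 0.155 and 0.238, Col6a3 to Col6a1 crosses the line between the groups without and with TGFb1, and Col8a2 to Col8a1 is lowest with TGFb1 + TNF.

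CHIR against DMSO asks what CHIR did without TGFb1. Of the 8 genes 6 rose and 2 fell, beside 44.8% of all genes tested that were called, 22.1% higher and 22.7% lower, with a median log2 change of 0.24 against -0.01 over all genes. Col8a1 and Col12a1 were the pair that fell. Col8a1 read 9.5, 9.392 and 8.766 CPM with CHIR, 5.93-fold under DMSO (log2 -2.57 ± 0.079 SE, edgeR adjusted p = 3.17e-24). Col12a1 read 167.8, 176.2 and 162.4 CPM, 4.22-fold under DMSO (log2 -2.08 ± 0.041 SE, edgeR adjusted p = 3.62e-40). The CHIR libraries lay below all DMSO libraries for both genes.

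The genes that rose with CHIR did so by less. Col6a3 went to 1519, 1493 and 1473 CPM (log2 0.79 ± 0.036 SE) and Col14a1 to 296.3, 308.9 and 306.9 CPM (log2 0.62 ± 0.044 SE). Col8a2 rose to 1.49, 2.091 and 0.9253 CPM (log2 1.51 ± 0.29 SE), on 19 to 55 counts a library. Col6a1, at 1757, 1671 and 1774 CPM, Col6a2, at 794, 736.1 and 797.9 CPM, and Col16a1, at 177.6, 172.6 and 191 CPM, had log2 rises of 0.22, 0.23 and 0.24. In each of these genes the CHIR libraries lay above those with DMSO, but for Col8a2 the gap between the nearest libraries was narrow.

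TGFb1 + CHIR against TGFb1 + DMSO asks what CHIR did in the presence of TGFb1. Here 4 of the 8 genes rose, 3 fell and 1 did not pass, beside 43.3% of all genes called, 20.8% higher and 22.5% lower. The median log2 change was 0.19, against 0 over all genes. Against TGFb1 alone 4 rose and 4 fell, beside 45.6% of all genes called (22.2% higher and 23.4% lower), and the median turned to -0.13. The RNAs of the collagen VI chains among the 8 genes all rose. Col6a1 went to 576.6, 575.6 and 622 CPM (log2 0.87 ± 0.041 SE), Col6a2 to 242.1, 242.7 and 268.6 CPM (log2 0.94 ± 0.05 SE) and Col6a3 to 2761, 2748 and 2795 CPM (log2 0.48 ± 0.036 SE). All of these libraries were above those with TGFb1 + DMSO, though Col6a1 and Col6a2 stayed below their DMSO levels. Col12a1 also rose, to 2714, 2500 and 2519 CPM (log2 0.87 ± 0.038 SE), its highest level in the 7 groups.

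Col14a1 fell to 30.27, 30.72 and 28.05 CPM, 4.07-fold under TGFb1 + DMSO (log2 -2.03 ± 0.051 SE, edgeR adjusted p = 1.5e-35). Col8a2 fell to 12.3, 13.19 and 12.17 CPM, 3.24-fold lower (log2 -1.69 ± 0.12 SE), and Col16a1 to 133.1, 148.7 and 120.4 CPM, 1.55-fold lower (log2 -0.63 ± 0.051 SE). The groups did not overlap for these 3 genes. Col8a1, at 245.2, 238.6 and 283.4 CPM, overlapped with TGFb1 + DMSO and did not pass (log2 -0.11 ± 0.055 SE, edgeR adjusted p = 0.109). Without TGFb1 + CHIR replicate 3, the highest of these libraries, Col8a1 was called lower (log2 -0.19, edgeR adjusted p = 0.00286), and so it was against TGFb1 alone (log2 -0.51, edgeR adjusted p = 9.88e-10). The endothelial marker list summed to 19.3 to 21.6 CPM in these libraries and to 4.16 to 6.09 CPM with TGFb1 + DMSO. Kdr carried most of this, at a mean of 20.39 against 4.192 CPM, and Cldn5 was at 0. The other genes of the list had lower means with TGFb1 + CHIR than with TGFb1 + DMSO. Pecam1 stood at 0.1085 against 0.6577 CPM, Cdh5 at 0.1914 against 0.2642 CPM and Emcn at 0.01646 against 0.04711 CPM, all near the floor. The part of this list in these results was not tested. The genes of the sorted surface proteins, Ly6a and Ly6c1, summed to 7.59 to 9.26 CPM in the same libraries and to 79.2 to 85.2 CPM with TGFb1 + DMSO. Without TGFb1 they summed to 68.1 to 78.4 CPM with CHIR and to 185 to 198 CPM with DMSO, and the part of this in the CHIR results was not tested.

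The difference between the CHIR effects with and without TGFb1, an interaction term in the same fit, passed for all 8 genes, 4 higher and 4 lower, beside 41.2% of all genes called, 21% higher and 20.3% lower. It was 2.94 ± 0.056 SE for Col12a1 on the log2 scale (edgeR adjusted p = 4.98e-41), which fell with CHIR without TGFb1 and rose with CHIR in its presence. Col14a1 had the opposite turn, a rise without and a fall with TGFb1, with an interaction of -2.64 ± 0.068 SE (edgeR adjusted p = 2.69e-35). Col8a2 and Col16a1 turned as Col14a1 did, with log2 interactions of -3.21 ± 0.31 SE and -0.87 ± 0.072 SE. Col8a1, with 2.46 ± 0.097 SE, fell with CHIR without TGFb1 and did not pass in its presence. The collagen VI chains among the 8 genes rose in both settings, Col6a1 and Col6a2 more with TGFb1 (0.66 ± 0.058 SE and 0.71 ± 0.068 SE) and Col6a3 less (-0.30 ± 0.051 SE).

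TGFb1 + CHIR against CHIR shows the same 4 groups from the side of TGFb1 and shares libraries with the comparisons above. There 4 genes rose and 4 fell, beside 66.2% of all genes called, 33.8% higher and 32.3% lower. Col8a1 rose 27.6-fold (log2 4.79 ± 0.075 SE) and Col12a1 15.3-fold (log2 3.93 ± 0.044 SE), Col8a2 by log2 3.02 ± 0.17 SE and Col6a3 by log2 0.89 ± 0.036 SE. Col14a1 was 10.2-fold lower (log2 -3.36 ± 0.052 SE). Col6a1 and Col6a2 had log2 falls of -1.55 ± 0.042 SE and -1.63 ± 0.049 SE. Col16a1 rose with TGFb1 in DMSO but fell with it in CHIR (log2 -0.43 ± 0.052 SE).

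**Figure D3:**
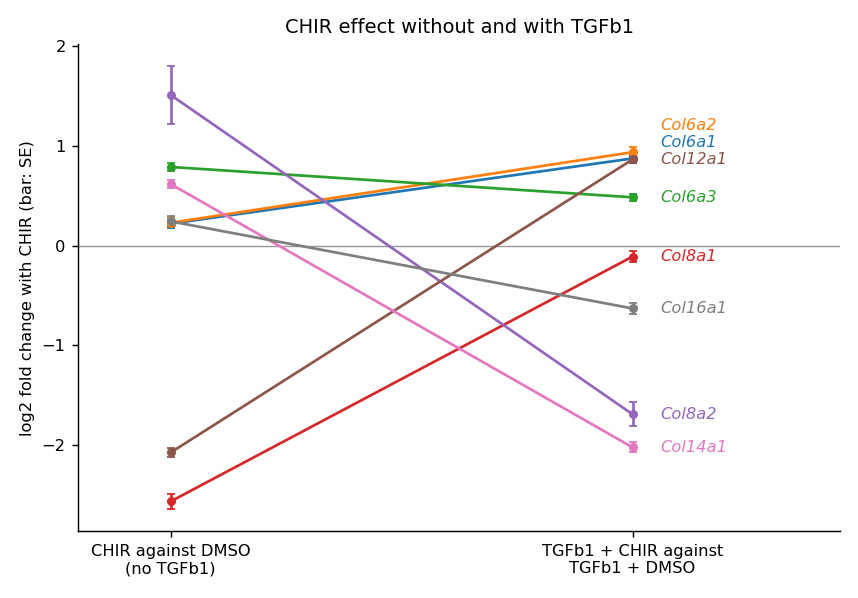
Log2 fold change of each collagen gene with CHIR (vertical axis, bars are SE), without TGFb1 on the left and with TGFb1 on the right, from a fit with 3 libraries a group. The lines of Col12a1 and of Col14a1, Col8a2 and Col16a1 cross 0 in opposite directions, and those of the 3 collagen VI chains stay above it.

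TGFb1 + TNF and TGFb1 + IL1b were each set against TGFb1 alone, which they share as a control, to ask what the inflammatory cytokines added. With TNF, 7 of the 8 genes fell and 1 rose, beside 56.6% of all genes called (27.7% higher and 28.8% lower), and the median log2 change was -1.52 against -0.00402 over all genes. With IL1b, 5 fell, none rose and 3 did not pass, beside 34.6% of all genes called (17.4% lower), with a median of -0.30. Against TGFb1 + DMSO in place of TGFb1, the IL1b tally was 2 higher, 4 lower and 2 not passed, beside 39.3% of all genes called (19.6% higher and 19.8% lower), and the median was -0.08. Set directly against each other, IL1b left 7 genes higher than TNF did and 1 lower, beside 47.6% of all genes called (24.7% higher and 22.8% lower), with a median log2 difference of 1.2.

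Within collagen VI, TNF left Col6a1 at 152.5, 148.6 and 149.5 CPM, against 396, 359 and 366.3 CPM with TGFb1, 2.49-fold lower (log2 -1.32 ± 0.043 SE). Col6a2 was at 45.67, 43.9 and 48.76 CPM, against 167.6, 147 and 144.7 CPM, 3.32-fold lower (log2 -1.73 ± 0.054 SE). Col6a3 was at 1719, 1564 and 1650 CPM, against 2231, 2356 and 2367 CPM, 1.41-fold lower (log2 -0.50 ± 0.036 SE). No libraries overlapped for these chains, and Col6a1 and Col6a2 had their lowest levels of the 7 groups with TNF. With IL1b, Col6a1 read 336.6, 320.4 and 314.3 CPM (log2 -0.21 ± 0.041 SE), Col6a2 118.1, 113 and 106.8 CPM (log2 -0.44 ± 0.05 SE) and Col6a3 1788, 1765 and 1744 CPM (log2 -0.39 ± 0.036 SE). Against TGFb1 + DMSO in place of TGFb1, the IL1b fall of Col6a1 was lost (log2 0.01 ± 0.041 SE, edgeR adjusted p = 0.936).

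TNF moved the collagen VIII chains apart. Col8a1 was the gene that rose, to 647.3, 647.2 and 644.6 CPM from 360.5, 370.7 and 364.2 CPM with TGFb1 (log2 0.82 ± 0.054 SE, edgeR adjusted p = 3.39e-15). Col8a2 fell to 2.418, 1.636 and 2.054 CPM from 33.77, 42.04 and 45.28 CPM, 19.8-fold lower (log2 -4.31 ± 0.15 SE, edgeR adjusted p = 8.46e-28). Neither pair of groups overlapped. With IL1b, Col8a2 fell to 21.76, 21.92 and 21.13 CPM (log2 -0.90 ± 0.11 SE), and Col8a1, at 383.1, 385.3 and 401.8 CPM, did not pass (log2 0.10 ± 0.054 SE, edgeR adjusted p = 0.186), though it did against TGFb1 + DMSO (log2 0.50, edgeR adjusted p = 2.62e-09). The direct difference, IL1b less TNF, was 3.41 ± 0.15 SE for Col8a2 and -0.73 ± 0.054 SE for Col8a1 on the log2 scale.

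Among the FACITs, Col12a1 fell with TNF to 256.6, 271.7 and 266 CPM from 1547, 1503 and 1470 CPM, 5.69-fold lower (log2 -2.51 ± 0.041 SE, edgeR adjusted p = 2.09e-44). Col14a1 fell to 17.18, 17.47 and 19.36 CPM from 143.4, 140.1 and 138 CPM, 7.81-fold lower (log2 -2.97 ± 0.054 SE, edgeR adjusted p = 1.6e-42), and Col16a1 to 161.6, 154.5 and 166.7 CPM from 215.8, 224.4 and 237.8 CPM (log2 -0.49 ± 0.051 SE). Every TNF library was below every TGFb1 library for the 3 genes, and Col12a1 and Col14a1 were below their DMSO levels as well. With IL1b, Col12a1 stood at 1509, 1450 and 1415 CPM, overlapping with TGFb1 (log2 -0.05 ± 0.038 SE, edgeR adjusted p = 0.367), and Col16a1 at 233.7, 246.2 and 232.8 CPM did not pass (log2 0.07 ± 0.05 SE, edgeR adjusted p = 0.279). Col14a1 fell to 81.07, 80.13 and 83.24 CPM (log2 -0.79 ± 0.046 SE), and the direct difference between IL1b and TNF was 2.46 for Col12a1, 2.18 for Col14a1 and 0.56 for Col16a1.

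In the direct test Col6a1 and Col6a2 were also higher with IL1b, by log2 1.11 and 1.29. The difference for Col6a3, 0.10 ± 0.036 SE (edgeR adjusted p = 0.0152), was lost without TGFb1 + IL1b replicate 1 (edgeR adjusted p = 0.0591) or TGFb1 + TNF replicate 2 (edgeR adjusted p = 0.15). The fibroblast list, mainly collagen I and III, summed to 22600 to 23700 CPM with TNF and to 61900 to 64200 CPM with TGFb1. Within that list Pdgfra stood at 76.78 CPM with TNF and 424.3 CPM with TGFb1, while Dcn was higher with TNF, at 532.7 against 224.5 CPM. The part of cell makeup in these results was not tested.

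**Figure D4:**
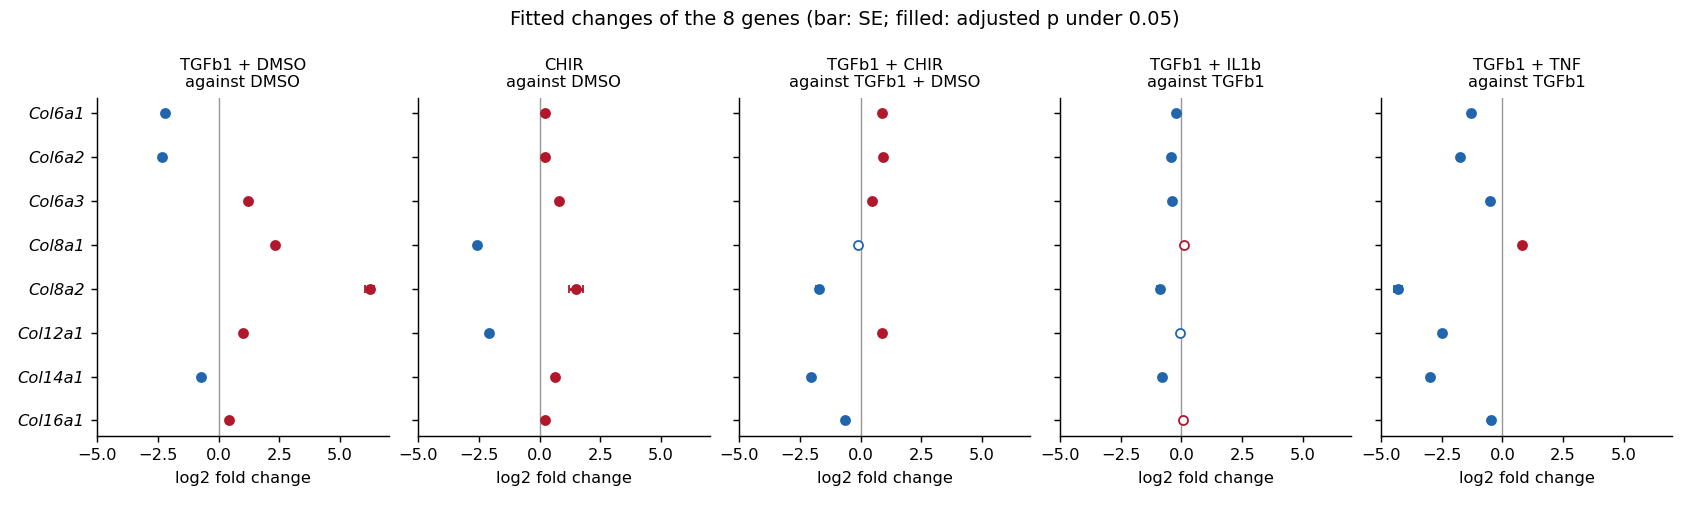
Log2 fold change (horizontal axis, bars are SE) of the 8 collagen genes in 5 comparisons of 3 against 3 libraries; filled points passed an adjusted p of 0.05 and red and blue points lie above and below 0. Col8a2 has the largest values, 6.23 with TGFb1 + DMSO and -4.31 with TNF, and the IL1b panel has 3 open points and the smallest spread.

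TGFb1 + DMSO against TGFb1 measures the solvent in the presence of TGFb1. Of the 8 genes 5 fell and 3 did not pass, beside 6.13% of all genes called (3.8% lower). Col8a1 fell most, by log2 -0.40 ± 0.055 SE (1.32-fold lower), and Col6a1, Col6a2, Col6a3 and Col14a1 had log2 falls between -0.23 and -0.21. Col8a2 (log2 0.01 ± 0.11 SE), Col12a1 (log2 -0.09 ± 0.038 SE) and Col16a1 (log2 -0.12 ± 0.05 SE) did not pass. The fall of Col6a2 was lost without TGFb1 replicate 1 (log2 -0.15, edgeR adjusted p = 0.0763). For Col6a1 the difference was as large as that between TGFb1 + IL1b and TGFb1, and for Col8a1 it was larger than that between TGFb1 + CHIR and TGFb1 + DMSO.

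Ordering the 7 groups by level gave each gene its own sequence, and 38 of the 48 neighbouring pairs differed (edgeR adjusted p under 0.05) while 10 did not pass. The share of such pairs over all genes tested was not computed, so this count does not set these genes apart. Col6a1 and Col6a2 ran from CHIR over DMSO, TGFb1 + CHIR and TGFb1 to TGFb1 + TNF, spanning 11.5-fold and 16.8-fold, and for Col6a1 TGFb1 + IL1b and TGFb1 + DMSO could not be separated. Col6a3 ran from TGFb1 + CHIR down to DMSO over 3.2-fold with every neighbour separated. Col8a1 spanned 70.1-fold from TGFb1 + TNF to CHIR, with TGFb1 + IL1b and TGFb1, and TGFb1 + DMSO and TGFb1 + CHIR, not separated. Col8a2 spanned 73.8-fold from TGFb1 + DMSO to DMSO. Its unseparated pairs were TGFb1 + DMSO with TGFb1, and TGFb1 + TNF with CHIR.

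Col12a1 spanned 15.3-fold from TGFb1 + CHIR to CHIR, and TGFb1, TGFb1 + IL1b and TGFb1 + DMSO followed each other without separation. Col14a1 spanned 16.9-fold from CHIR to TGFb1 + TNF with every neighbour separated. Col16a1 spanned 1.77-fold from TGFb1 + IL1b to TGFb1 + CHIR, and TGFb1 + IL1b with TGFb1, TGFb1 with TGFb1 + DMSO, and TGFb1 + TNF with DMSO were not separated. Per kb of merged exon, Col6a1 had the highest level of the 8 genes in DMSO, at 340 CPM per kb, and in CHIR, at 395.9. Col6a3 was highest in all 5 groups with TGFb1, from 137.4 to 231.4 CPM per kb, and Col8a2 was lowest in all 7 groups, from 0.1225 to 9.047. These places were the same with the lengths of the principal transcripts.

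The genes whose log2 CPM followed each collagen most closely over the 21 libraries were ranked among 9950 genes by Pearson's r, with the 8 collagens themselves left out, as a description, since libraries of a group share their treatment. Col6a1 and Col6a2 followed each other more closely than any of these. Outside the 8 genes, Fbln7, Colec12 and Ahnak2 were nearest to Col6a1, at 0.994 to 0.992, and Ahnak2, Gas1 and Fbln7 to Col6a2, at 0.994 to 0.993. Elk3, Clint1 and Lrrc15 followed Col6a3 at 0.973 to 0.963. For collagen VIII, Bicd2, Aurka and Cenpa followed Col8a1 at 0.988 to 0.986 and Gpr153, Ankrd44 and Gpr180 followed Col8a2 at 0.976 to 0.973. Cyb5r3, Snap47 and Azin2 were nearest to Col12a1 at 0.984 to 0.968, and Loxl1, Mxd4 and Pcdh18 to Col14a1 at 0.991 to 0.98. Col16a1 had the weakest likeness, 0.887 to 0.88, to Fads2, Ugdh and Lrrc75b.

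Of 12 further chains of FACITs, collagen VI and short-chain collagens, 7 were tested. With TGFb1 + DMSO against DMSO all 7 fell, beside 62% of all genes called in either direction and 31.3% called lower. Their median log2 change was -5.19. Col6a5, an alternative to the alpha 3 chain of collagen VI, went from 13.4 to 0.0568 CPM (log2 -7.68 ± 0.5 SE). Col6a6, another such chain, went from 0.997 CPM to no counts in any TGFb1 + DMSO library, at least 27.4-fold lower against a floor of 3 counts over the group. Col9a3, a chain of the cartilage FACIT collagen IX, and Col20a1 fell by less (log2 -1.32 and -1.22), from levels under 1.6 CPM, and those calls were lost without TGFb1 + DMSO replicate 2; that of Col9a3 was also lost without TGFb1 + DMSO replicate 1 or DMSO replicate 3.

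Of 10 fibrillar chains tested, 7 rose and 3 fell with TGFb1 + DMSO, beside 30.7% of all genes called higher and 31.3% lower. Their median log2 change was 0.91. Col5a3 (log2 2.995 ± 0.047 SE) and Col5a1 (log2 1.79 ± 0.04 SE), chains of the fibril-nucleating collagen V, led the rise, and Col2a1 (log2 -1.33) and Col27a1 (log2 -1.17) the fall. Of 16 genes for folding, modification and export of collagens, 14 rose and 2 did not pass, beside the same shares of all genes. None fell, but 1 did with DESeq2, RLE factors, library totals alone or the filter of 1 CPM in 3 libraries. The genes that rose were led by P4ha2 (log2 2.001 ± 0.044 SE) and P4ha1 (log2 1.58 ± 0.041 SE), which encode prolyl 4-hydroxylase subunits. Mia2 (log2 0.25) and Ppib (log2 0.14) rose least. The call for Ppib was lost without DMSO replicate 2, TGFb1 + DMSO replicate 2 or TGFb1 + DMSO replicate 3.

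Of 17 receptors and matrix partners, 5 rose, 11 fell and 1 did not pass. In the same comparison 30.7% of all genes were called higher and 31.3% lower. Cspg4, which encodes NG2, a proteoglycan that binds collagen VI, rose from 7.48 to 99.5 CPM (log2 3.73 ± 0.1 SE), and Itga2, a collagen-binding integrin chain, from 2.02 to 13.8 CPM (log2 2.78 ± 0.12 SE). Tnxb, the gene of tenascin X, a matrix protein that interacts with collagens XII and XIV, fell from 628.8 to 3.901 CPM (log2 -7.33 ± 0.17 SE), and Lum, a small proteoglycan, by log2 -4.07. Of 10 collagens of basement membranes and cell surfaces, 2 rose, 6 fell and 2 did not pass. Col7a1, the anchoring fibril collagen, rose by log2 1.14 and Col18a1 by 0.15, a call lost without DMSO replicate 3, while Col23a1 and Col4a6 fell (log2 -2.67 and -2.33).

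With CHIR added to TGFb1 + DMSO, 20.8% of all genes were called higher and 22.5% lower, which applies to each list of this paragraph. Here 5 fibrillar chains rose, 3 fell and 2 did not pass. Those that rose were led by Col27a1 (log2 1.25) and Col3a1 (log2 0.60), and those that fell by Col2a1 (log2 -2.32) and Col11a1 (log2 -0.57). Of the basement membrane and surface collagens 1 rose and 7 fell, with Col15a1 (log2 -3.45 ± 0.12 SE) and Col4a1 (log2 -1.89 ± 0.043 SE) lowest. The 1 that rose, Col4a6 at 2.44 CPM, lost its call without TGFb1 + DMSO replicate 2 or TGFb1 + CHIR replicate 2. The partners split into 6 that rose and 8 that fell, among them Cspg4 (log2 -2.40 ± 0.09 SE) and Itga11 (log2 -1.68 ± 0.05 SE), a collagen I receptor chain of fibroblasts. In the folding list 5 rose and 7 fell, with Plod1 (log2 0.73) highest and Plod2 (log2 -0.92) lowest, both lysyl hydroxylases. Of the further family chains 3 rose and 1, Col28a1, fell (log2 -3.36), all at group means under 2 CPM, and without TGFb1 + DMSO replicate 1 only 1 rose.

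With TNF against TGFb1, 27.7% of all genes were called higher and 28.8% lower, which applies to each list of this paragraph. Here 9 of the 10 fibrillar chains fell and 1 rose, with a median log2 change of -1.21. Col5a3 rose (log2 1.66 ± 0.042 SE), and Col11a1 (log2 -3.33 ± 0.063 SE) and Col3a1 (log2 -1.96 ± 0.038 SE) fell most. Of the 16 folding genes 11 fell and 2 rose, with P4ha3 lowest (log2 -1.83) and Mia2, an export factor, highest (log2 0.99). Of the partners 7 rose and 8 fell: Fmod, a fibril-binding proteoglycan, fell from 123.7 to 4.43 CPM (log2 -4.80 ± 0.08 SE), Lum by log2 -3.76, and Itga2 and Cspg4 rose (log2 1.64 and 1.27). Of the basement membrane and surface collagens 3 rose, among them Col18a1 (log2 0.81) and Col4a4 (log2 2.78, from 0.07531 to 0.503 CPM, near the floor), and 4 fell, led by Col4a6 (log2 -1.52) and Col4a5 (log2 -1.24). The further family chains were near or under 2 CPM, with 2 that rose and 2 that fell, and the 2 falls became 1 without TGFb1 replicate 1 or 3 or TGFb1 + TNF replicate 2 or 3.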

How the data were processed

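The 21 libraries were stranded libraries of total RNA, per the labels' protocols. The authors deposited raw counts per gene; the aligner, counter, strand setting and filters are not given in these sources. The builds GRCh38 and GRCm38 are named in the submitters' processing notes without a role. Each of the 21 single-library tables held the values of its column in the joint table. Symbols, lengths and positions came from GENCODE M21 on GRCm38, in which 147 of 52636 IDs, with 0.00736% of the counts, had no symbol. No other annotated gene shared exonic bases with the 8 genes.

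Groups were taken from the labels. The replicate numbers used here are not in the labels: they follow the order of the running numbers in the library titles within each group. Counts were tested with edgeR 4.0.16 (R 4.3.3): filterByExpr, TMM factors, 1 coefficient per group over all 21 libraries, robust quasi-likelihood F-tests and Benjamini-Hochberg adjustment over 16197 genes (threshold 0.05). The fit was also run on simulated counts in which few genes changed, in a single group, with the same spread for every gene. The real comparisons called more genes than that, so this run does not test the error rates in them. Chain ratios used counts per kb of merged exon with a pseudocount of 0.5 counts. The genes, lists and tests were chosen with earlier results of these data known. Named list genes were up to 4 per list and comparison, those with the highest and lowest log2 fold change past the threshold. The genes most alike were the 3 outside the 8 collagens with the highest Pearson's r (log2 CPM with a prior count of 2, mean at least 2). Alternatives were DESeq2 1.42.0, limma 3.58.1 voom, RLE factors, library totals alone, no filter, a filter of 1 CPM in 3 libraries, only the groups compared, the other TGFb1 control, and each library left out. No set test was run. Some genes of the marker lists are not reported here.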

Additional observations from a re-analysis of the deposited data

Results flagged for a closer look

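For each of the 8 genes, the CHIR effect with TGFb1 differed from that without it by the interaction test (edgeR adjusted p under 0.05), which is what marked them here. The log2 difference between the effects was 0.66 for Col6a1, 0.71 for Col6a2, -0.30 for Col6a3, 2.46 for Col8a1, -3.21 for Col8a2, 2.94 for Col12a1, -2.64 for Col14a1 and -0.87 for Col16a1. The interaction was called for 41.2% of all genes tested. In all 12 libraries behind these values the groups compared did not overlap, except for Col8a1 between TGFb1 + CHIR and TGFb1 + DMSO. How often groups did not overlap over all genes tested was not computed, here or for the comparisons above. A lack of overlap therefore does not set these genes apart.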

How the results depend on the processing

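The number of the 8 genes called in each comparison moved by no more than 1 under any alternative, and the number of neighbouring groups that differed stayed between 37 and 39. Directions turned for values near 0. Col8a2 in TGFb1 + DMSO against TGFb1 was -0.00223 with DESeq2, -0.001374 with RLE factors and between -0.103 and 0.09861 with each library left out. Against the other TGFb1 control, the IL1b effect was 0.005676 for Col6a1, 0.04276 for Col12a1 and 0.04973 for Fkbp10, none of them past the threshold. The log2 difference in the Col8a2 to Col8a1 ratio was 3.46 against that control. With that control Col16a1 passed with IL1b (0.194). Col8a1 in TGFb1 + CHIR against TGFb1 + DMSO passed with library totals alone (-0.166) and with no filter (-0.1275), and with IL1b it passed with only the groups compared (0.09535). Col6a3 in IL1b against TNF no longer passed with RLE factors (0.08085) or library totals alone (0.04129). Genes called in TGFb1 + DMSO against TGFb1 went from 993 to 646 without TGFb1 replicate 1. With other settings, counts in the gene lists moved by over 1.5 times, or to or from 0, in 31 values, while 639 did not. With a library left out, 33 moved in this way and 567 did not. With TGFb1 + DMSO against DMSO, the folding genes that fell were 0 and became 1 with DESeq2, RLE factors, library totals alone or the stricter filter, and the basement membrane and surface collagens that rose went from 2 to 1 with library totals alone. In TGFb1 + CHIR against TGFb1 + DMSO, the latter went from 1 to 0 with voom or the other control, and the further family chains that fell from 1 to 2 with no filter. With TNF, the basement membrane and surface collagens that rose went from 3 to 5 against the other control. The further chains that fell went from 2 to 1 with no filter or only the groups compared and to 0 against the other control, and those that rose from 2 to 1 with the stricter filter or only the groups compared. The causes were not tested. The length of the principal transcript and the alternatives for the gene lists were chosen after seeing the data. No paired analysis was possible because the labels give no replicate numbers that groups share. Depth limits Col8a2 in DMSO and CHIR, at 11 to 55 counts a library.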
